A study of Mus musculus with 9 samples.

Results

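Hbb-b2, Hba-a2 and Alas2, genes of hemoglobin and of red cell heme synthesis, were followed in the distal small intestine of 9 mouse samples on Affymetrix arrays. The genes were chosen from their levels on these same arrays, with all 3 group comparisons in view, so their levels and differences are given as a description and without a test. Their probe sets were those that the platform annotation pairs with exactly 1 of the 3 symbols. There were 4 of them among 45037 probe sets, 2 for Hbb-b2 and 1 each for Hba-a2 and Alas2. A further 4 probe sets carry a member's symbol together with other globin symbols, and they are described as shared probe sets of no single gene.

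In all groups Bacteroides thetaiotaomicron, a common gut commensal, had colonized the mice for 10 days. Of 16 pieces of the small intestine, numbers 10, 11, 12 and 14 were pooled as whole segments, so epithelium, immune cells, muscle, vessels and any blood in them were measured together. BP stands for 3 arrays titled BP, whose source label is the same Rag1 intestine; what BP means is not spelled out in the labels. Rag1 stands for 3 arrays from mice labelled Rag1, after a recombinase gene without which lymphocytes build no antigen receptors. Wild type stands for 3 arrays from B6 mice. The labels give no allele, age, sex or strain for the Rag1 and BP mice, and they do not say whether each array is a separate mouse, so p-values measure the spread between these arrays only. The series title puts IgA, the secreted antibody of mucosal surfaces, at the centre of the study.

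Hemoglobin, the oxygen carrier of red cells, is built of alpha and beta globin chains that each hold a heme group. The adult alpha chain is encoded by the near-identical genes Hba-a1 and Hba-a2. Adult beta globin genes differ between mouse strains: one haplotype carries Hbb-b1 and Hbb-b2, and another, which B6 mice carry, has Hbb-bs and Hbb-bt in their place. Alas2 encodes the erythroid form of 5-aminolevulinate synthase, the first enzyme of heme synthesis, and lies on the X chromosome, whereas Alas1 serves other cells. Red cells of adult mice are made in marrow and spleen, so their messenger RNA reaches the intestine with the blood, mainly in young red cells (reticulocytes).

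The promoters of these genes are shown to let the letters behind the family likeness be seen, since the alpha and beta globin genes and Alas2 are transcribed in the same red cell precursors. They are the 250 bases before the RefSeq start in build GRCm38.p6, 5′ to 3′. Capitals mark, on either strand, GATAA (a core of the site of GATA factors such as the erythroid factor Gata1), CACCC (a core of sites of Klf-type factors such as the erythroid factor Klf1), CCAAT and TATAA. Hbb-bs and Hbb-bt are included because the shared beta globin probe set carries their symbols as well, and Hbb-b2 has no entry.
Hba-a2, chr11:32296242-32296491, plus strand: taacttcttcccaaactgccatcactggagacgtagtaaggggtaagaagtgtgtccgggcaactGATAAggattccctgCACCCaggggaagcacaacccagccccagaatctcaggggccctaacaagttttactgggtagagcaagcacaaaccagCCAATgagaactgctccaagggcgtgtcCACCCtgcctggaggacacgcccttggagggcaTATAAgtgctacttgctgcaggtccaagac
Alas2, chrX:150547167-150547416, plus strand: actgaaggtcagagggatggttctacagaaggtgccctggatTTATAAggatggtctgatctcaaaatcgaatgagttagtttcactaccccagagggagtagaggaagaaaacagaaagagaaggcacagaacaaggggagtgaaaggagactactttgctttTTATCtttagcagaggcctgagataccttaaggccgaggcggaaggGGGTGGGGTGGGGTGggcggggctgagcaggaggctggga
Hbb-bs, chr7:103827929-103828178, minus strand: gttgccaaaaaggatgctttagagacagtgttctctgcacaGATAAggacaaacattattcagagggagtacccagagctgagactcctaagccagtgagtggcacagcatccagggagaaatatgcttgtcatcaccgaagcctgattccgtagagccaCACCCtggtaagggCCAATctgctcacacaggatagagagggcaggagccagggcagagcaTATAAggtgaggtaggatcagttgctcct
Hbb-bt, chr7:103813924-103814173, minus strand: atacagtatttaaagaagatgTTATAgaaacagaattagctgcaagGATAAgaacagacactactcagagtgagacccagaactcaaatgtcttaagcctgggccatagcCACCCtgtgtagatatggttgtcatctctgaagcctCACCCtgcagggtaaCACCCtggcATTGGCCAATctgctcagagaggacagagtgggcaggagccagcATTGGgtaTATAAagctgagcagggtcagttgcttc
GATAA occurred once in each of the 4 windows, 185 bases before the start in Hba-a2, 86 in Alas2, 209 in Hbb-bs and 204 in Hbb-bt. A match of CACCC lay 63 bases before the start in Hba-a2, 40 in Alas2, 90 in Hbb-bs and 89 in Hbb-bt, and TATAA lay 30, 29 and 28 bases before it in Hba-a2, Hbb-bs and Hbb-bt. Alas2 had 3 matches of CACCC and no match of CCAAT. In Alas2 the motif TATAA occurred as an overlapping pair at 208 and 207 bases before the start. Among 32851 promoter windows of that length, 22.6% hold GATAA, 52% CACCC, 33.8% CCAAT and 22.8% TATAA, and 0.968% hold all of them, as the 3 globin windows do. The 300-base windows of Hba-a1 and Hba-a2 share an identical run of 297 bases. These matches are letters in a window and were not measured as binding.

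Signal of the probe sets annotated to Hbb-b2, an adult beta globin gene, was highest on the BP arrays. Since B6 mice carry Hbb-bs and Hbb-bt instead, the wild type signal cannot be read as a level of Hbb-b2 itself. The labels do not give the haplotype of the Rag1 and BP mice, and its part in the differences was not tested. Its brighter probe set had a deposited intensity of 937, 812 and 895 on BP replicates 1, 2 and 3, against 266, 70.8 and 154 on Rag1 replicates 1, 2 and 3 and 174, 87.9 and 115 on wild type replicates 1, 2 and 3. Every BP array lay above every Rag1 and wild type array, and the Rag1 and wild type arrays overlapped. The mean was 881 ± 63.7 on BP, 164 ± 97.9 on Rag1 and 125 ± 44.0 on wild type arrays (SD, n = 3 each). On the normalized log2(value + 16) scale the difference of means was 2.59 ± 0.39 for BP minus Rag1 and 2.68 ± 0.39 for BP minus wild type (SE of the fit over all arrays). It was 0.09 ± 0.39 for Rag1 minus wild type, so the order was BP, then Rag1 and wild type, with the last pair no farther apart than their spread. Of 27022 tested probe sets, 6 had a larger value of BP minus Rag1 and 3 a larger value of BP minus wild type. The gene was chosen from these same levels, so nothing is read from that rank.

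The other Hbb-b2 probe set was dim and below the brightness needed for testing. It read 5.69, 18.5 and 22.2 on the BP arrays, against 1.44, 1.43 and 3.07 on the Rag1 arrays and 6.69, 6.08 and 1.67 on the wild type arrays. The BP arrays again lay above the Rag1 arrays, but BP and wild type overlapped.

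Hba-a2, the gene of an adult alpha globin chain, went the other way on its own probe set. That probe set read 106, 53.8 and 27.1 on BP replicates 1, 2 and 3, against 424, 448 and 308 on Rag1 replicates 1, 2 and 3 and 251, 417 and 109 on wild type replicates 1, 2 and 3. The BP arrays were lowest, with no overlap with Rag1, and the highest BP array was close to the lowest wild type array. Means were 62.1 ± 39.9 on BP, 394 ± 74.8 on Rag1 and 259 ± 154 on wild type arrays (SD, n = 3 each). The normalized log2 difference was -2.48 ± 0.48 for BP minus Rag1, -1.84 ± 0.48 for BP minus wild type and 0.64 ± 0.48 for Rag1 minus wild type (SE). After normalization BP and wild type overlapped, and so did Rag1 and wild type. Of the tested probe sets, 32 had a lower value of BP minus Rag1, a rank from which again nothing is read.

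Alas2 was higher on the BP arrays. Its probe set read 53.4, 107 and 84.2 on BP replicates 1, 2 and 3, against 28.5, 7.92 and 15.2 on Rag1 replicates 1, 2 and 3 and 18.1, 21.9 and 19.8 on wild type replicates 1, 2 and 3. All BP arrays lay above all others, and Rag1 and wild type overlapped. The normalized log2 difference was 1.58 ± 0.28 for BP minus Rag1, 1.34 ± 0.28 for BP minus wild type and -0.23 ± 0.28 for Rag1 minus wild type (SE, n = 3 each). The added 16 compresses these values. Alas2 was dim outside BP, so no fold is given: its normalized mean was 6.58 on BP, 5.0 on Rag1 and 5.23 on wild type arrays, and the brightness filter lay at 5.30, so it passed that filter through the BP arrays.

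**Figure D1:**
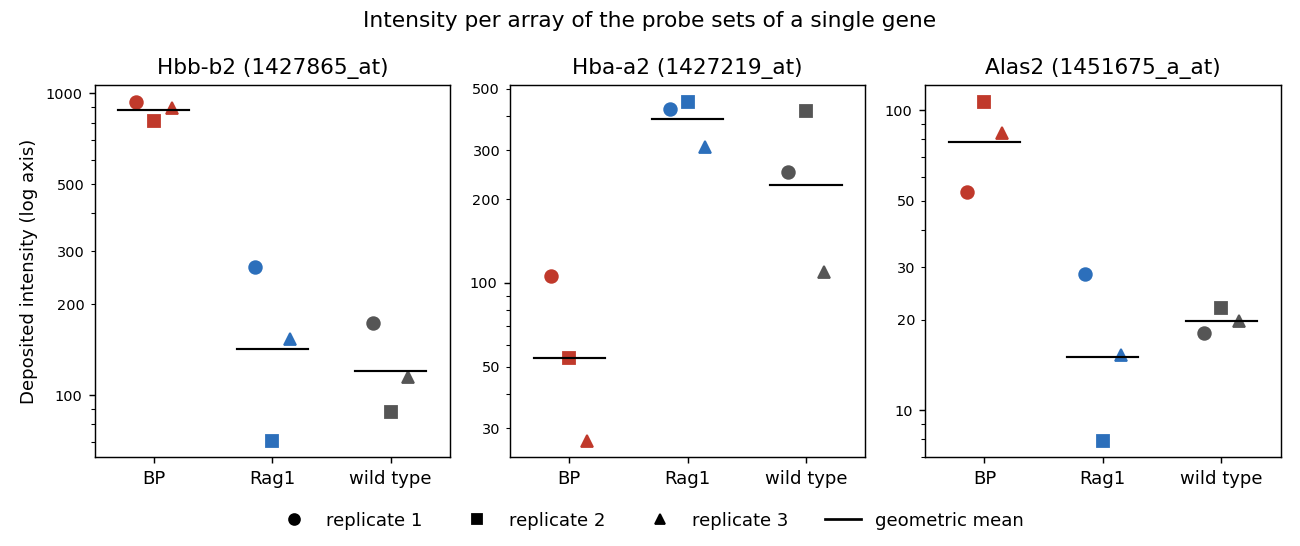
Deposited intensity (log axis) of the bright Hbb-b2 probe set and of the Hba-a2 and Alas2 probe sets on each array; symbols give the replicate and lines the geometric mean of 3 arrays. Hbb-b2 lies between 812 and 937 on BP arrays and at most at 266 elsewhere, Hba-a2 is lowest on BP arrays, and Alas2 is at least 53.4 on BP arrays and at most 28.5 elsewhere.

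Of these 3 brighter probe sets, Hbb-b2 and Alas2 had every BP array above every Rag1 array after normalization, as did 9.33% of all tested probe sets. Hba-a2 had every BP array below every Rag1 array, as did 14.2%. Against wild type, BP lay wholly above for Hbb-b2 and Alas2, as for 7.33% of all tested probe sets, and for Hba-a2 the normalized values overlapped (11.3% lay wholly below). Between Rag1 and wild type all 3 overlapped, where 8.7% of tested probe sets lay wholly above and 9% wholly below. Since these levels led to the choice of the genes, nothing is read from that count.

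The probe sets that several globin genes share were much brighter and differed less between the groups. The shared adult beta globin probe set, whose symbols are Hbb-bt, Hbb-bs, Hbb-b2 and Hbb-b1, read 3025, 4470 and 3021 on BP replicates 1, 2 and 3. It read 3119.6, 827 and 2090.3 on Rag1 replicates 1, 2 and 3, and 1906, 2028 and 1716 on wild type replicates 1, 2 and 3. BP and Rag1 overlapped in deposited intensity, and Rag1 replicate 2 was the lowest of all arrays. The normalized log2 difference was 1.08 ± 0.33 for BP minus Rag1, 0.98 ± 0.33 for BP minus wild type and -0.10 ± 0.33 for Rag1 minus wild type (SE).

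The 3 probe sets shared by Hba-a1 and Hba-a2 behaved like the shared beta globin probe set and unlike the Hba-a2 probe set. The brightest read 4662, 4663 and 5189.7 on BP arrays, against 4558, 2092 and 3757 on Rag1 arrays and 3835, 3203 and 3237 on wild type arrays. In deposited intensity the BP arrays were highest, and Rag1 replicate 2 was again lowest, but after normalization BP replicate 2 (12.10) and Rag1 replicate 1 (12.11) overlapped. Of the other alpha globin probe sets, 1 had BP replicate 1 (2899) below Rag1 replicate 1 (3087.6) in deposited intensity, and neither overlapped after normalization. Over the 3 probe sets, normalized log2 differences were 0.65, 0.76 and 0.96 for BP minus Rag1 (SE 0.22 to 0.25) and 0.59, 0.70 and 0.75 for BP minus wild type. For Rag1 minus wild type they were -0.26, -0.05 and -0.01. The Hba-a2 probe set had the opposite sign to these 3 in all 3 comparisons. Genes this alike cannot be told apart by the shared probe sets, and the sequences of the probes were not used here.

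**Figure D2:**
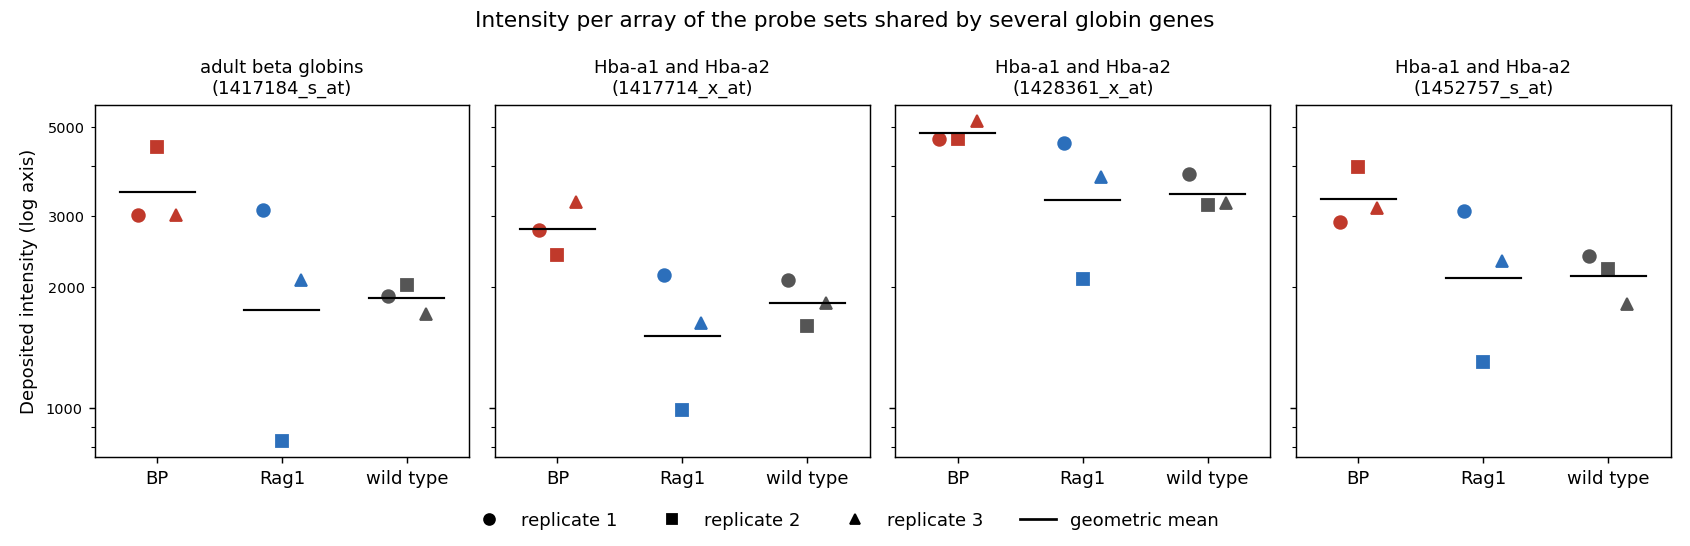
Deposited intensity (log axis, common to the panels) of the 4 probe sets shared by several globin genes, per array; symbols give the replicate and lines the geometric mean of 3 arrays. The BP arrays read 2412 to 5189.7 over the 4 probe sets, and Rag1 replicate 2 is the lowest array in each panel.

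Set against the shared beta globin signal of the same array, a ratio in which the scaling of an array cancels, Hbb-b2 and Alas2 were highest on the BP arrays. The Hbb-b2 signal was 31.0%, 18.2% and 29.6% of the shared beta globin signal on BP replicates 1, 2 and 3, against 8.53%, 8.55% and 7.36% on Rag1 and 9.12%, 4.33% and 6.67% on wild type replicates 1, 2 and 3. The BP arrays stood apart from all others. The Alas2 signal was 1.77%, 2.39% and 2.79% of it on BP, 0.915%, 0.958% and 0.729% on Rag1 and 0.952%, 1.08% and 1.15% on wild type arrays. The BP arrays were again all above the rest. Outside BP, Alas2 was dim, with group means below the brightness filter, so the size of its ratios is not read as a fold. Against a shared alpha globin probe set, Hbb-b2 was 27.4% to 33.7% on BP, 7.13% to 12.4% on Rag1 and 5.5% to 8.33% on wild type arrays, and Alas2 was 1.92% to 4.42% on BP, 0.798% to 1.33% on Rag1 and 0.87% to 1.37% on wild type arrays.

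The Hba-a2 signal was 3.49%, 1.2% and 0.897% of the shared beta globin signal on BP arrays, against 13.6%, 54.2% and 14.8% on Rag1 arrays and 13.2%, 20.6% and 6.37% on wild type arrays. It did not follow the shared signal within Rag1: replicate 2, lowest in shared globin, was highest in Hba-a2. Relative to the brightest shared alpha globin probe set, Hba-a2 was 0.522% to 2.26% on BP, 8.21% to 21.4% on Rag1 and 3.37% to 13% on wild type arrays. These percentages compare arrays, not amounts of different transcripts, since each probe set has its own brightness.

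**Figure D3:**
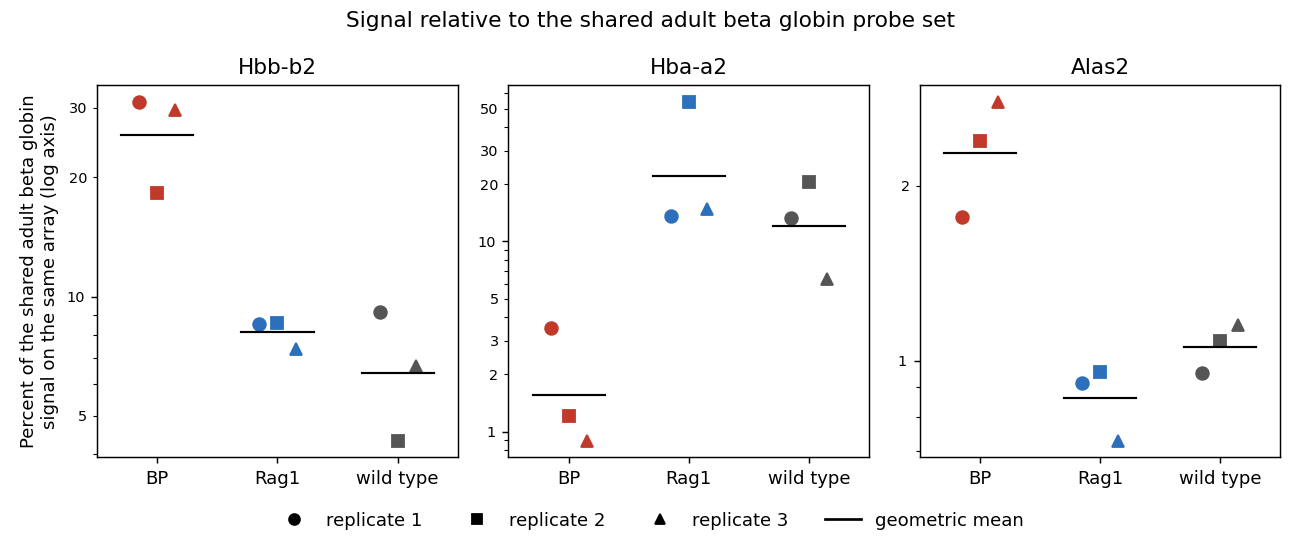
Signal of Hbb-b2, Hba-a2 and Alas2 as a percent of the shared adult beta globin probe set on the same array (log axis); symbols give the replicate and lines the geometric mean of 3 arrays. Hbb-b2 is 18.2% to 31.0% on BP arrays and at most 9.12% elsewhere, and Hba-a2 is at most 3.49% on BP arrays and at least 6.37% elsewhere.

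RNA quality and sex-linked signals differed between the groups and also within BP. For the actin control probe sets, signal at the 3′ end over that at the 5′ end, a ratio that is high in degraded RNA, was 14.2, 2.43 and 20.2 on BP replicates 1, 2 and 3, 1.53 to 1.77 on Rag1 arrays, and 3.25 on the first, 1.76 on the second and 4.17 on the third wild type array. BP replicate 2 had the lowest ratio of its group, though above all Rag1 arrays. It had Hbb-b2 at 812 and Alas2 at 107, above all Rag1 and wild type arrays, and Hba-a2 at 53.8, below them all. With BP replicates 1 and 3 left out, which leaves 1 BP array, BP minus Rag1 was 2.20 for Hbb-b2, -2.84 for Hba-a2 and 1.58 for Alas2, and with the actin ratio as a covariate 2.07, -2.30 and 1.57. Within wild type, Hba-a2 was lowest on replicate 3, which had the highest ratio of that group, and highest on replicate 2, which had the lowest. In the other groups the low end of that order held and the high end did not. Replicate 3 had the highest ratio and the lowest Hba-a2 within BP (20.2 and 27.1) and within Rag1 (1.77 and 308). Within BP, Hba-a2 was highest on replicate 1, at 106 with a ratio of 14.2, and not on replicate 2. Within Rag1 it was highest on replicate 2, while replicate 1 had the lowest ratio. Xist, a transcript of female cells that silences an X chromosome, read 36.0, 624 and 1735 on BP replicates 1, 2 and 3, 5.84 to 24.1 on Rag1 and 1086 to 1539 on wild type arrays. Eif2s3y, a gene of the Y chromosome, read 17.0, 3.16 and 3.34 on BP replicates 1, 2 and 3. It read 44.9 to 109 on Rag1 and 1.40 to 7.22 on wild type arrays. The parts of RNA quality and of sex in the differences of Hbb-b2, Hba-a2 and Alas2 were not tested.

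The labels were checked with genes of lymphocytes. The Rag1 probe set itself was too dim, at most 22.8 on any array. Igha, the IgA heavy chain, read 54.5 to 111 on BP, 83.4 to 93.4 on Rag1 and 2583 to 6389 on wild type arrays. The tissue was checked with 9 tested epithelial genes, whose summed intensity was 58530 to 65833 on BP, 53376 to 60673 on Rag1 and 58231 to 65322 on wild type arrays.

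Other globin genes gave no signal that could be followed. The 8 single-gene probe sets of Hba-a1, of the embryonic alpha-like gene Hba-x and of the embryonic beta-like genes Hbb-y and Hbb-bh1 were all below the brightness filter. None exceeded 29.7 on any array.

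Of 48 listed erythroid genes, 35 had a probe set of their own and 21 were bright enough to be tested. Between BP and Rag1, 1 rose and none fell in limma at an adjusted p under 0.05, or 4.76%, against 3.8% of all tested probe sets (1.1% higher and 2.7% lower), and 3 had an unadjusted p under 0.05. The median normalized log2 difference was 0.00, against -0.05 over all tested probe sets, with 10 values positive and 11 negative. Xpo7, a nuclear export factor, was the gene that rose, at 623, 648 and 763 on BP arrays, against 366, 315 and 422 on Rag1 and 532, 400.4 and 612 on wild type arrays, so that every BP array lay above all others (0.94 ± 0.22, adjusted p = 0.0439 in limma). Its second tested probe set differed by -0.37 (adjusted p = 0.357). With the actin ratio as a covariate the brighter probe set was at 0.37 (adjusted p = 0.306 in limma). Without BP replicates 1 and 3, which leaves 1 BP array, it was at 0.6.

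The other listed erythroid genes ranged from dim to bright. Slc4a1, the anion exchanger of the red cell membrane, read 32.2, 47.7 and 35.6 on BP arrays, against 46.3, 58.2 and 18.0 on Rag1 and 52.8, 23.4 and 37.8 on wild type arrays. The groups overlapped, and BP minus Rag1 was -0.02 ± 0.32 (adjusted p = 0.986 in limma). Klf1 and Gata1, transcription factors of red cell precursors, read at most 64.9 and 65.0 on any array, with BP minus Rag1 at 0.58 ± 0.30 (adjusted p = 0.319 in limma) and 0.16 ± 0.31 (adjusted p = 0.839 in limma). Tal1, a further transcription factor of these precursors, read 15.3, 253 and 48.8 on BP arrays and at most 43.5 elsewhere (0.66 ± 0.57, adjusted p = 0.584 in limma). Ank1 and Dmtn, of the membrane skeleton, read 36.6 to 142 and 117 to 196 over all arrays, with BP minus Rag1 at 0.00 and 0.07 (adjusted p of 0.997 and 0.934 in limma). The 14 erythroid genes left untested, among them Epb42 of the membrane skeleton and the Rh-associated glycoprotein gene Rhag, read at most 77.6. In whole tissue, fewer red cells and less RNA per red cell cannot be told apart.

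The brightest listed erythroid genes are also used by other cells. Aqp1, a water channel of red cells and vessels, read 1418, 2383 and 1523 on BP arrays, 1853, 1905 and 1802 on Rag1 and 2984, 2752 and 2378 on wild type arrays, a Rag1 minus wild type value of -0.53 ± 0.16 (adjusted p = 0.449 in limma). Mkrn1, Prdx2 and Tfrc, the last the transferrin receptor, differed between BP and Rag1 by -0.27, -0.33 and 0.38, with adjusted p from 0.203 to 0.342 in limma. Between Rag1 and wild type no erythroid gene passed (2 of 21 at an unadjusted p under 0.05), against 0.329% of all tested probe sets (0.0703% higher and 0.259% lower). Between BP and wild type none passed either (2 of 21 unadjusted), against 0.633% (0.0592% higher and 0.574% lower).

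Heme synthesis, which Alas2 opens in red cell precursors, was otherwise represented by genes of the pathway and of mitochondrial transport, not all particular to red cells. All 14 listed genes with a probe set of their own were tested, and none passed in limma in any comparison, with 6 at an unadjusted p under 0.05 for BP minus Rag1, 0 for Rag1 minus wild type and 3 for BP minus wild type. Their median normalized log2 difference was 0.05, -0.04 and 0.00 in that order. Alas1, the form of the first enzyme in other tissues, read 481, 703 and 474 on BP arrays, against 716, 782 and 999 on Rag1 and 766, 789 and 739 on wild type arrays. This brighter of its probe sets was lowest on the BP arrays but did not pass (BP minus Rag1 -0.53 ± 0.17, adjusted p = 0.102 in limma). A second, dimmer Alas1 probe set had the opposite sign, with 90.4 to 661 on BP, 114 to 130.3 on Rag1 and 125 to 151 on wild type arrays (0.66, adjusted p = 0.494 in limma).

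Later steps of the pathway had values of both signs between BP and Rag1. Ppox, the protoporphyrinogen oxidase, was at -0.94 ± 0.26 (adjusted p = 0.0707 in limma), and Alad, the second enzyme, at -0.37 ± 0.20 (adjusted p = 0.330). Urod and Cpox, the decarboxylase and oxidase of the middle steps, were at 0.75 ± 0.25 (adjusted p = 0.124) and 0.80 ± 0.31 (adjusted p = 0.169). Fech, which puts iron into the ring, was at 0.04 ± 0.19 (adjusted p = 0.938). Slc25a39 and Glrx5, mitochondrial proteins of glutathione import and of iron-sulfur cluster assembly, were at 0.43 ± 0.16 (adjusted p = 0.16) and 0.69 ± 0.28 (adjusted p = 0.199). Cpox and Glrx5 were highest on BP replicate 2. Cpox read 214, 573 and 175 on BP replicates 1, 2 and 3, against 190, 181 and 144 on Rag1 arrays, and Glrx5 read 616, 1660.1 and 561 on BP, against 654, 387 and 609 on Rag1 arrays.

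Among genes that handle heme and iron, 20 of 25 were tested, and between BP and Rag1 1 rose and 1 fell in limma, or 10%, against 3.8% of all tested probe sets. Flvcr1, described as a heme exporter, read 564, 1165 and 914 on BP arrays, against 509.97, 442 and 423 on Rag1 and 666, 866 and 694 on wild type arrays, and rose by 0.94 ± 0.22 (adjusted p = 0.0379 in limma). Fth1, the ferritin heavy chain that stores iron, read 2792, 3809.7 and 2899 on BP arrays, against 6901, 5915 and 6679.5 on Rag1 and 4641, 5703 and 4488 on wild type arrays, and fell by 0.94 ± 0.13 (adjusted p = 0.00833 in limma). BP and Rag1 did not overlap for either gene. The second tested probe set of each gene differed by -0.11 (adjusted p = 0.881) and 0.07 (adjusted p = 0.869). Hmox1, the inducible enzyme that breaks down heme, read 115, 89.4 and 91.5 on BP arrays, against 109, 52.6 and 65.8 on Rag1 arrays (0.46 ± 0.30, adjusted p = 0.434). Among the brightest of this list, Aco1, the iron regulatory protein, was at 0.70, Lrp1, a receptor for hemopexin-bound heme, at -0.66 and Heph, the ferroxidase hephaestin, at -0.12 (adjusted p of 0.19, 0.232 and 0.847 in limma). Aco1 too was highest on BP replicate 2, at 884, 2484 and 902 on BP, against 912, 623 and 941 on Rag1 arrays. No gene of this list passed in limma for Rag1 minus wild type (4 at an unadjusted p under 0.05) or BP minus wild type (1 unadjusted).

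Over the 3 lists together, 3 of 53 tested genes passed between BP and Rag1, or 5.66%, against 3.8% of all tested probe sets. This count depended on single arrays. It was 0 without Rag1 replicate 1 and 0 without Rag1 replicate 2, and 1 without Rag1 replicate 3, BP replicate 3, wild type replicate 1 or wild type replicate 3. Without BP replicate 2 it was 11, with 19.6% of all tested probe sets called. The share of all tested probe sets called was 0.0666% without Rag1 replicate 1, 0.0888% without Rag1 replicate 2 and 0.788% without Rag1 replicate 3. It was 0.825% without BP replicate 3, 1.75% without wild type replicate 1 and 1.67% without wild type replicate 3. The call of Fth1 was lost when Rag1 replicate 1 (adjusted p = 0.0614 in limma) or replicate 2 (0.0509) was left out. Flvcr1 and Xpo7 lost theirs without any single Rag1 array, BP replicate 3, wild type replicate 1 or wild type replicate 3, and Xpo7 also without BP replicate 1, with adjusted p of 0.0688 to 0.13 and 0.0694 to 0.167.

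**Figure D4:**
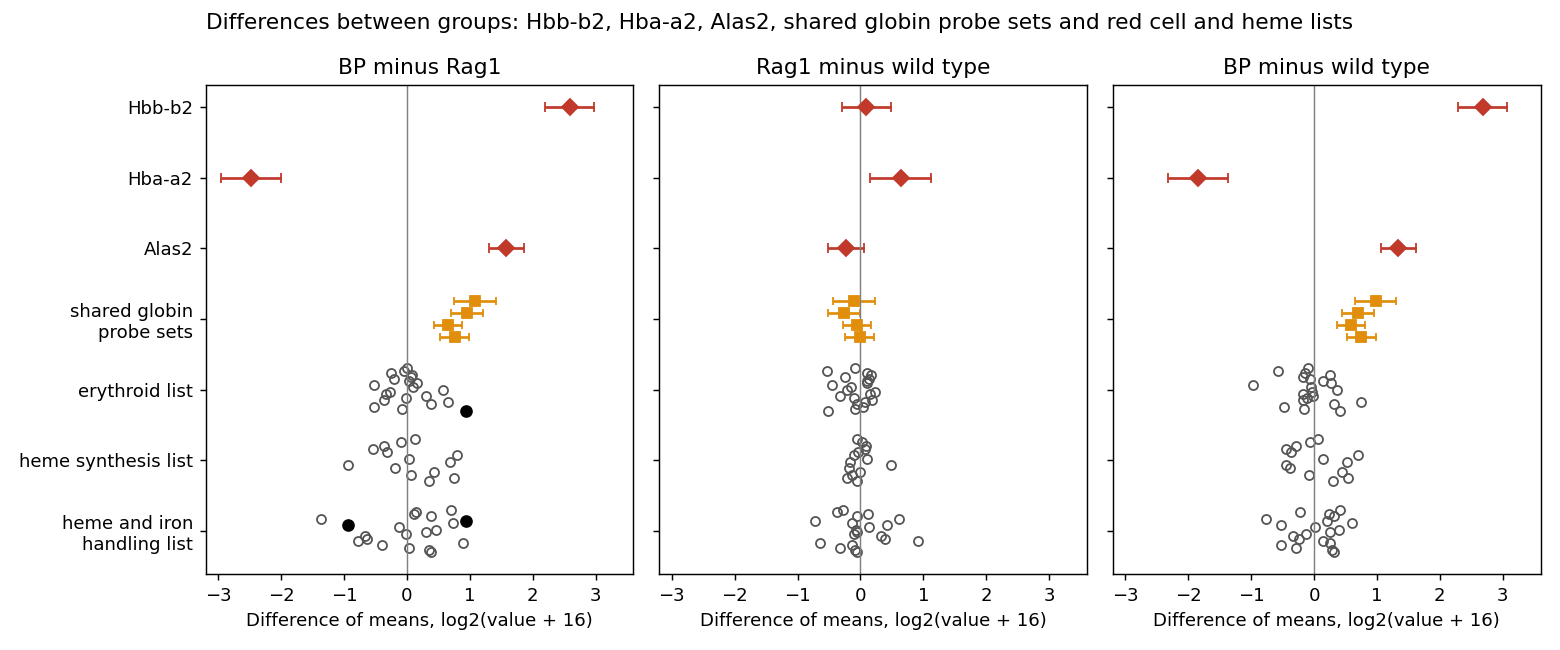
Differences of group means on the normalized log2(value + 16) scale for the 3 comparisons: diamonds are Hbb-b2, Hba-a2 and Alas2 (bars: SE), squares the 4 shared globin probe sets (bars: SE), and circles the tested genes of the erythroid, heme synthesis and heme and iron handling lists, filled where the adjusted p was under 0.05. For BP minus Rag1, Hbb-b2 at 2.59 and Hba-a2 at -2.48 lie outside all listed genes. They were chosen from these same levels, so nothing is read from that place. In this comparison the shared probe sets lie between 0.65 and 1.08, and the 3 filled circles are Xpo7, Flvcr1 and Fth1.

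Markers of other blood cells and of vessels were read beside the globin signals. Of 9 tested platelet genes, 1 rose between BP and Rag1 and 1 between BP and wild type, in both cases Pf4, a chemokine stored in platelets, against 3.8% and 0.633% of all tested probe sets called in either direction. For BP minus Rag1, 7 of the 9 values were positive (77.8%, against 46.2% of all tested probe sets). Their median was 0.26, against -0.05 over all tested probe sets. The 2 negative ones were the platelet glycoprotein genes Gp5 and Gp9, at -0.97 and -0.68 (adjusted p of 0.184 and 0.208 in limma). For BP minus wild type 5 values were positive and 4 negative. Pf4 read 98.1, 249.7 and 162 on BP arrays, against 68.2, 51.9 and 72.5 on Rag1 and 52.4, 24.9 and 53.9 on wild type arrays. All BP arrays lay above all others, with differences of 1.29 ± 0.30 for BP minus Rag1 (adjusted p = 0.0414 in limma) and 1.56 ± 0.30 for BP minus wild type (adjusted p = 0.0465). The first call was lost without any single Rag1 array, BP replicate 3, wild type replicate 1 or wild type replicate 3 (adjusted p of 0.0648 to 0.162). The second was lost without any single Rag1 or wild type array or BP replicate 3 (0.0864 to 0.232). The summed intensity of the platelet list was 1248 to 1524 on BP, 999 to 1112 on Rag1 and 949 to 1032 on wild type arrays. Such a sum is carried by the brightest genes. As a mean over the list on the normalized log2 scale, BP (6.44 to 6.6) and wild type arrays (6.25 to 6.53) overlapped. Rag1 arrays were at 6.29 to 6.36. The part of platelets in the globin differences was not tested.

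Of 14 tested endothelial genes, none passed in limma in any comparison (5 at an unadjusted p under 0.05 for BP minus Rag1, 0 for Rag1 minus wild type and 3 for BP minus wild type). Their summed intensity was 1465 to 1903 on BP, 1745 to 1971 on Rag1 and 1547 to 1715 on wild type arrays. Of 3 tested neutrophil genes none passed (1, 1 and 0 unadjusted, in the same order), and their sum was 219 to 255 on BP, 276 to 318 on Rag1 and 178 to 239.6 on wild type arrays.

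The genes most like the mean of Hbb-b2, Hba-a2 and Alas2 over the 9 arrays, among 12789 genes, had Pearson correlations of 0.864 to 0.916. They were led by Pi4ka, a phosphatidylinositol kinase (0.916), Ust (0.902) and Zfp932 (0.894), and none of the 10 was in a red cell or heme list. That mean joins genes of opposite sign, so each gene was also compared alone, which was decided after the values were seen. Hbb-b2 was most like Snhg4, a noncoding RNA (0.97), and Glb1, the lysosomal beta-galactosidase (0.966). Hba-a2 was most like Sdr39u1 (0.987), and Alas2 was most like Mrpl44, a mitochondrial ribosomal protein (0.984), Fcgr3, an antibody receptor of myeloid cells (0.975), and the acute phase gene Saa3 (0.966). None of the 5 genes most like each was in a red cell or heme list. With 3 arrays a group and BP set apart, these correlations mostly restate the difference of BP from the rest and are given as a description.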

How the data were processed

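The 9 arrays measured biotin-labelled cRNA made from 20 µg of total RNA, per the labels' protocols. The authors deposited linear intensities per probe set, from 1 to 21694; the sources used here do not say how probes were summarised or whether arrays were scaled. Array medians of 29.4 to 48.0 differed, so log2(value + 16) was quantile-normalized. The 64 control probe sets and the lowest 40% by mean (5.30 on the log2 scale, an intensity of 23.5) were left out, which kept 27022. Gene names came from the platform annotation; a gene was its brightest tested probe set with 1 symbol. limma 3.58.1 in R 4.3.3 fitted 1 mean per group over all 9 arrays (6 residual degrees of freedom) with an intensity trend, two-sided, with Benjamini-Hochberg adjustment over all tested probe sets at 0.05, and was tested on simulated data. That fit shares 1 spread over the groups. The median SD of a tested probe set in log2 was 0.44 on BP, 0.21 on Rag1 and 0.23 on wild type arrays. Each SE of the fit therefore does not show the wider spread of BP. The simulated data gave all groups the same spread, so they cannot vouch for the comparisons with BP. The number of arrays limits the precision.

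The 3 genes, the 7 gene lists and the tests were chosen with earlier results of these data known. Genes were named if called, if otherwise among the 4 brightest of a list (for lists of other cell types, sums are given instead), if among the 10 most like the 3 genes by correlation, or, chosen after their values were seen, to fill out a pathway step: Slc4a1, Klf1, Gata1, Tal1, Ank1, Dmtn, Gp5, Gp9, Epb42, Rhag, Urod, Cpox, Ppox, Fech, Hmox1, Prdx2 and the genes most like each gene alone. In all, 14 alternatives were tried. Promoters came from RefSeq tables of build GRCm38.p6, which matched 2 of the 3 genes; no coordinates come from the arrays' files.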

Additional observations from a re-analysis of the deposited data

How the results depend on the processing

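The differences of Hbb-b2, Hba-a2 and Alas2 for BP against Rag1 and wild type kept their sign under every alternative run. Over all 3 comparisons, with every array kept or BP replicates 1 and 3 left out, 1 of 117 values changed sign (Hbb-b2, Rag1 minus wild type). The filter settings, the fit of only the groups compared, the replicate block and the fit without the trend cannot change a difference of means. Averaging probe sets cannot move Hba-a2 or Alas2, with 1 each, and leaving out BP arrays cannot move Rag1 minus wild type. With those fixed values included, 111 of the 117 values moved by less than the spread between replicates. The exceptions were Alas2 for BP minus Rag1 and BP minus wild type, at 2.33 and 1.83 with a pseudocount of 1 and 0.84 and 0.75 with 64, and Hbb-b2 at 1.64 and 1.59 as the mean of both probe sets, of which 1 is dim. Leaving out each array gave 2.17 to 2.98, -0.30 to 0.51 and 2.46 to 2.94 for Hbb-b2 (BP minus Rag1, Rag1 minus wild type, BP minus wild type), -2.99 to -2.16, 0.17 to 1.03 and -2.34 to -1.45 for Hba-a2, and 1.35 to 1.79, -0.44 to -0.01 and 1.22 to 1.48 for Alas2. The sign of Hbb-b2 for Rag1 minus wild type is therefore not settled.

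The count of 3 called red cell and heme genes for BP minus Rag1 was 1 with only the groups compared, 1 without the intensity trend, 1 with the mean of all probe sets, 7 with array weights, 12 with the actin covariate and 17 without BP replicates 1 and 3; 0 to 11 with single arrays left out. All-probe-set calls were 14.9%, 15.5% and 22.1% under array weights, the covariate and without those arrays. They were 0.659% with only the groups compared, 1.92% without the intensity trend and 3.48% of genes with the mean of all probe sets. The count of 0 for Rag1 minus wild type became 1 with only the groups compared, 4 with array weights and 1 with the covariate. At those settings 1.28%, 3.89% and 1.09% of all probe sets were called, against 0.329% in the main fit. With single arrays left out the count was 0 to 1. BP replicates 1 and 3 are in neither group, and the count without them is left out. The count of 0 for BP minus wild type became 2 with median centring, 2 with array weights, 7 with the covariate and 13 without those arrays (0 to 4). The shares of all probe sets called for BP minus wild type were 1.85%, 3.17%, 12.9% and 21.1% at those settings. Without BP replicates 1 and 3 the lone BP array is assumed to vary like the other groups, so those calls carry no spread of BP. The cause was not tested. Fth1 kept its call in 19 of 22 alternatives, Flvcr1 in 11, Xpo7 in 7 and Pf4 in 8 and 9; the fit with a lone BP array is among those kept for all but Xpo7. The replicate block left the count at 3. It cannot change a difference of means here, so Hbb-b2, Hba-a2 and Alas2 stayed at 2.59, -2.48 and 1.58 for BP minus Rag1. Under the block Flvcr1 (adjusted p = 0.052 in limma) and Pf4 (0.0574 and 0.0737) lost the call. Deviations of same-numbered arrays from their group means had r of -0.185 to 0.234. With 3 arrays a group, these values cannot tell whether the numbers pair the arrays.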
